A study of Mus musculus with 47 samples.

Results

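The effect of 14 days of estradiol plus progesterone on luminal mature cells of the mouse mammary gland was described from 7 of the 47 RNA-sequencing libraries of the series. They were all the luminal mature (LM) libraries labelled with the combined hormones (3 mice) or with a sham treatment (4 mice), so the members were chosen by their labels and not by any measured value. All animals were ovariectomized FVB mice, which lack their own ovarian hormones. EP stands for estradiol plus progesterone, which the labels write as E2+Progesterone (for mouse 306 with the name repeated in brackets, taken as the same treatment), and no antagonist was given to these animals. The other arms of the study added an antagonist of the progesterone receptor to the same hormones. Neither the doses nor the age of the mice are in the labels. Cells were sorted by flow cytometry, and each library came from the LM fraction of 1 mouse. No mouse was shared between the 2 treatments. Values below are listed in the order of mice 301, 305, 310 and 326 for sham and of mice 306, 311 and 327 for EP.

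In the mammary epithelium, luminal mature cells are the hormone-sensing cells. Many carry the estrogen receptor (Esr1) and the progesterone receptor (Pgr), nuclear receptors that act as transcription factors when bound by their hormones. They pass the signal on through secreted factors, among them the cytokine RANKL (Tnfsf11), the EGF family ligand amphiregulin (Areg) and Wnt4. Luminal progenitors and basal cells receive these signals, and the gland then grows side branches and forms alveoli. Estrogen is known to induce the progesterone receptor, and progesterone acts with prolactin, whose receptor signals through STAT5.

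Values were on the scale of FPKM, fragments scaled to transcript length and to library size, and the read depth behind them is unknown. The deposited values appeared to have been adjusted gene by gene, since 93.6% of 11084 genes had an LM mean within 0.2 on the log2 scale of their mean in the other libraries of the series. Krt8, a luminal keratin, averaged 1269 in LM and 1293 elsewhere as deposited, and Krt5, a basal keratin, averaged 47.6 and 57.8. Levels in this table therefore do not test the LM label, and levels of different genes are not compared here. Differences between EP and sham within LM can be read, but an unknown shift by gene can change their size. A value listed at 0 may be a level under that shift, so no fold is given against a group at 0. Summed values of the 7 libraries ran from 286697 to 349128, and 10439 to 11161 genes exceeded 1.

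Of 11885 genes tested, 1215 were higher with EP (10.2% of all tested) and 1114 were lower (9.37%), or 19.6% together, at an adjusted p under 0.05. The difference printed for a gene is the mean log2(rescaled value + 1) of the 3 EP mice minus that of the 4 sham mice, from a limma fit of all 15 LM libraries. Without rescaling between libraries 1627 genes were higher and 753 lower, and the median of all genes moved from -0.02 to 0.14. All 3 EP values lay above all 4 sham values in 1833 genes (15.4%) and below them in 1762 (14.8%). For a single gene, an exact permutation test of 3 mice against 4 cannot give a two-sided p under 0.0571. The count of called genes fell to 1163 without EP mouse 306, to 952 without EP mouse 327 and to 1537 without sham mouse 310.

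The 3 EP mice differed from each other. Across the 11885 genes, each centred over the 7 libraries, EP mice 306 and 327 correlated at r = 0.83, and EP mouse 311 correlated with them at 0.24 and 0.18. Pairs of sham mice correlated at 0.11 (mice 301 and 305) to 0.61 (mice 310 and 326), a range that holds both values of mouse 311. These values are across genes, which are not independent replicates. Among the 2329 called genes, mouse 311 was the EP mouse nearest to the sham mean in 1504 and mouse 327 was the farthest in 1354. The markers of luminal mature cells (24 tested) had medians of -0.94, 0.12 and -1.18 against the sham mean in EP mice 306, 311 and 327. Those of luminal progenitors (21 tested) had -0.04, -1.28 and 0.00. Sham mouse 301 stood apart too, at -0.60 for the luminal mature and 1.01 for the progenitor markers. How far the cell makeup of each sort entered the results below was not tested. In bulk RNA, fewer cells of a type and less RNA per cell cannot be told apart.

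**Figure D1:**
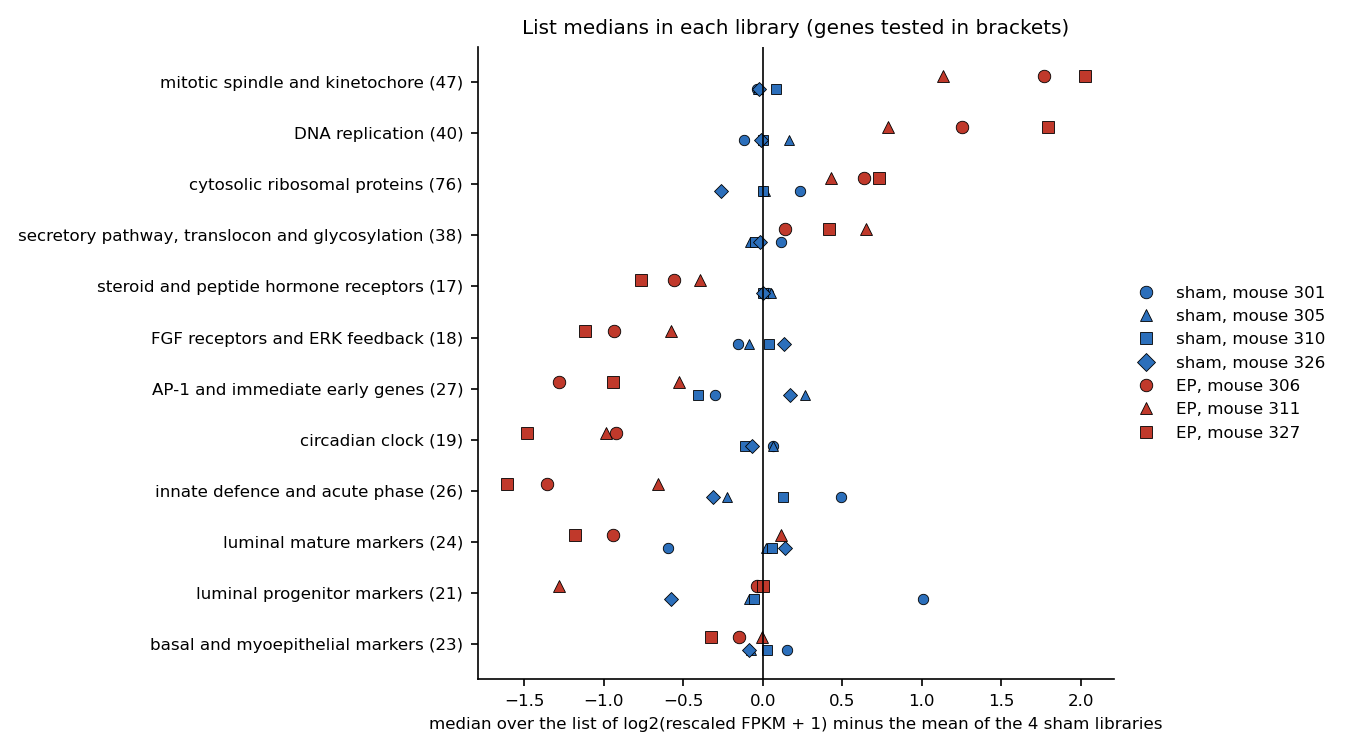
Median difference from the mean of the sham libraries, on the log2(rescaled FPKM + 1) scale, for 12 gene lists (rows) in each of the 4 sham (blue) and 3 EP (red) libraries, 1 symbol per mouse. The cell cycle lists lie above 0 in every EP mouse and the clock list below, while the luminal mature markers lie near 0 in EP mouse 311 (0.12) and at -0.94 and -1.18 in the other EP mice.

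Of the luminal mature markers, 5 of 24 were lower with EP (20.8%, against 9.37% of all genes) and none was higher at an adjusted p under 0.05. Their summed level was 7718 to 10331 in sham and 3140 to 10373 with EP. Without EP mouse 311, 9 were lower and the median difference went from -0.56 to -1.08, and with library weights 10 were lower. The lower ones were Esr1, the transcriptional cofactor Cited1, the adhesion molecule Epcam, Sytl2, which tethers secretory vesicles, and Fgb, the fibrinogen beta chain. Epcam was at 1130, 772, 805 and 730.01 in sham and 404, 404 and 263 with EP, with no overlap, and its difference was -1.27 (SE 0.29, adjusted p 0.00756). Without EP mouse 327, Epcam had an adjusted p of 0.0533. The keratin Krt18 was at 3597, 2811, 2344 and 2987 in sham and 787, 2551 and 668 with EP, so mouse 311 lay among the sham mice and the other EP mice far below them. Krt8 was at 2604, 1649, 1552 and 2126 in sham and 957, 2564 and 868 with EP, with the same order of EP mice. Neither keratin passed the test. Krt18 differed by -1.39 (SE 0.83, adjusted p 0.26), and for Krt8 the difference was -0.59 (SE 0.67, adjusted p 0.578).

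Progenitor markers split, with 3 of 21 higher (14.3%) and 6 lower (28.6%), against 10.2% and 9.37% of all genes. Their summed level was 7582 to 19736 in sham and 3628 to 6866 with EP. The counts rested on single EP mice. They were 1 higher and 2 lower without mouse 327, 1 and 4 without mouse 306, and 6 and 5 without mouse 311, where the median difference went from -1.05 to 0.0. The higher ones were the ETS factor Ehf, the chemokine Cxcl15 and the WNT agonist Rspo1, and the lower ones were Ltf, Csn3, Lalba, Cd14, Aldh1a3 and Mfge8. Ehf was at 10.97, 10.5, 1.55 and 0.102 in sham and 81.03, 15.2 and 63.2 with EP, and its difference of 3.31 (SE 0.76, adjusted p 0.0103) was lost without EP mouse 306 (adjusted p 0.0527) or EP mouse 327 (0.0579). Cxcl15 had an adjusted p of 0.0135, and 0.0625 with a pseudocount of 0.1. The defining markers Kit, a receptor of progenitor cells, and Elf5, a factor of the alveolar lineage, were both listed at 0 in EP mouse 311 alone among the EP mice. Kit was at 55.5, 16.8, 47.5 and 30.5 in sham and 79.1, 0 and 48.5 with EP and Elf5 at 6.24, 6.43, 0 and 0 in sham and 17.1, 0 and 18.7 with EP. The difference of Kit was -1.15 (SE 1.18, adjusted p 0.534) and changed to 0.84 without mouse 311, and that of Elf5 was 1.39 (SE 0.99, adjusted p 0.358) and had an adjusted p of 0.0193 without that mouse.

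For markers of cells outside the luminal lineage, the shares called were near or under those of all genes (10.2% higher and 9.37% lower). The counts are therefore no result about these lists. Of the basal and myoepithelial list 1 of 23 was higher (Trp63) and 2 lower (Lgr5 and Lama3), and its sum was 1498 to 1821 in sham and 1287 to 1674 with EP. Krt14 was at 306, 255, 263 and 246 in sham and 279.98, 266 and 283 with EP and differed by 0.05 (SE 0.23, adjusted p 0.902). None of 18 endothelial, 12 immune cell or 12 fibroblast markers passed in either direction, and in each of these lists the ranges of the sum overlapped between groups. Sums were 596 to 729 in sham and 500 to 705 with EP for endothelial, 9.82 to 101.5 and 7.97 to 37.3 for immune cell and 41.5 to 159 and 46.9 to 147 for fibroblast markers. Of 9 adipocyte markers Lpl was higher, and of 12 muscle and red cell markers Alas2 was lower. Alas2 did not pass without EP mouse 306 (adjusted p 0.0546), and Trp63 lost its call in 6 of 18 alternative settings.

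Of 17 tested nuclear and peptide hormone receptors 4 were lower with EP (23.5%, against 9.37% of all genes) and none was higher at an adjusted p under 0.05. The median difference was -0.50 against -0.02 for all genes. Esr1 was at 16.4, 19.5, 29.2 and 30.03 in sham and 2.44, 11.2 and 1.61 with EP. All EP values lay below all sham values, with mouse 311 between the sham mice and the other EP mice, and the difference was -2.33 (SE 0.42, adjusted p 0.00232). The mineralocorticoid receptor gene Nr3c2 was at 3.03, 2.89, 4.52 and 4.53 in sham and 1.002, 0.956 and 0.936 with EP. Its 3 EP mice were close together, and it differed by -1.25 (SE 0.20, adjusted p 8.99e-04). The retinoic acid receptor Rara (-1.44, SE 0.34, adjusted p 0.00928) and the thyroid hormone receptor Thra (-0.78, SE 0.26, adjusted p 0.0452) completed the 4. Rara had an adjusted p of 0.0502 without EP mouse 306 and of 0.0651 without EP mouse 327. Thra was lost without any 1 of the 7 mice (adjusted p 0.0542 to 0.188).

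Pgr was at 1.47, 4.61, 5.43 and 4 in sham and 2.44, 10.7 and 1.45 with EP. Mouse 311 was the highest of the 7 and mouse 327 the lowest, so the groups overlapped, and the difference was 0.01 (SE 0.43, adjusted p 0.992), with a sign that turned in some settings. The prolactin receptor Prlr was at 198, 512, 389 and 401 in sham and 119, 229 and 89.2 with EP, where only mouse 311 reached into the sham range, and it did not pass (-1.39, SE 0.95, adjusted p 0.336). Prlr passed when only the EP and sham libraries were fitted (adjusted p 0.0429). The glucocorticoid receptor Nr3c1 (0.08, SE 0.22, adjusted p 0.831) did not pass either. Nor did the pioneer factors Foxa1 (-0.55, adjusted p 0.552) and Gata3 (0.49, adjusted p 0.518), nor the T-box factor Tbx3 (-1.03, adjusted p 0.233). Tbx3 was at 11.2, 34.1, 21.96 and 20.7 in sham and 6.44, 39.5 and 2.87 with EP, and without mouse 311 its adjusted p was 0.00174.

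**Figure D2:**
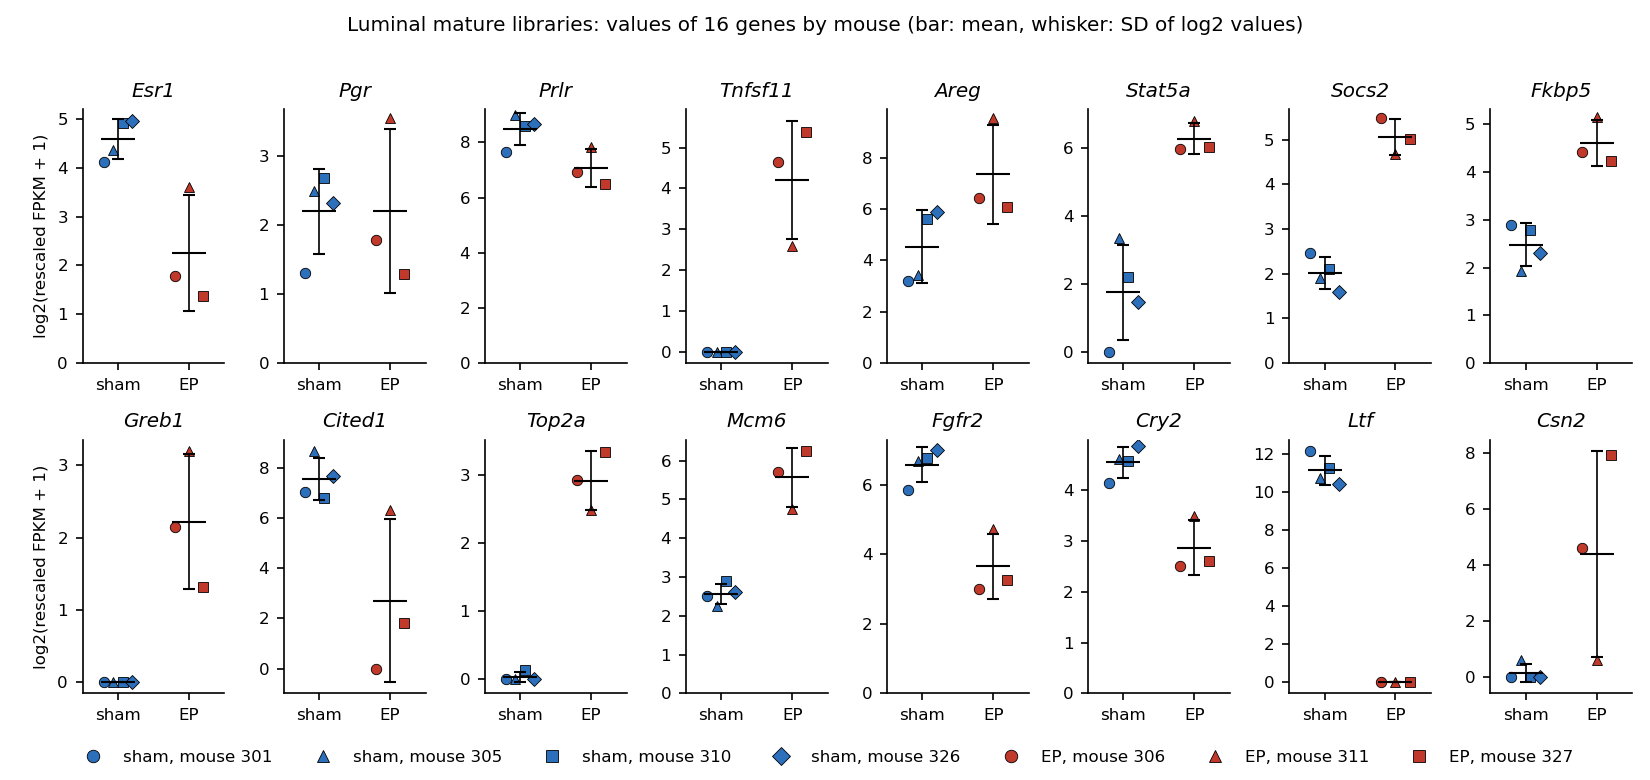
Log2(rescaled FPKM + 1) of 16 genes in the 4 sham (blue) and 3 EP (red) libraries, 1 symbol per mouse, with the mean (bar) and SD (whisker) of the log2 values. Esr1, Fgfr2, Cry2 and Ltf lie lower in every EP mouse than in every sham mouse, Stat5a, Socs2, Fkbp5 and the cell cycle genes higher, and Csn2 splits EP mouse 311 (0.540) from mouse 327 (248).

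Receptor partners gave 2 higher and 2 lower genes of 23, 8.70% each way, which is under the 10.2% and 9.37% of all genes and is no result about the list. Fkbp5, a cochaperone of steroid receptors and a known progesterone and glucocorticoid target, was at 6.44, 2.79, 5.87 and 3.96 in sham and 20.3, 34.4 and 17.9 with EP. Every EP mouse exceeded every sham mouse, and the difference was 2.12 (SE 0.27, adjusted p 1.94e-04). Greb1, a cofactor and classical target of the estrogen receptor, was at or near 0 in sham. Its highest sham value was 0.000917, and its EP values were 3.45, 8.16 and 1.49 (adjusted p 4.60e-04). Cited1 was at 133, 406, 111 and 206 in sham and 0, 78.2 and 2.57 with EP, again with mouse 311 between the groups, and fell by 4.84 (SE 1.04, adjusted p 0.00774).

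Among 21 progesterone targets and mediators 3 were higher (Fkbp5, Stat5a and Tnfsf11) and 2 lower (Lrrc26 and Klf9), which is near the shares of all genes. Tnfsf11 was listed at 0 in 11 of the 15 LM libraries, which add no spread to the estimate behind its p-value. These included all sham mice, so the gene entered the test through other libraries and could differ only upwards. Its EP values were 24.1, 4.99 and 40.7 (adjusted p 5.79e-04), so mouse 311 had the smallest value. The order was the opposite for Areg, at 8.23, 9.81, 48.3 and 57.7 in sham and 85.3, 749.8 and 65.8 with EP. Areg separated the groups, with mouse 311 far above all others, and did not pass (2.81, SE 1.39, adjusted p 0.177). Areg passed with each gene's lowest value subtracted (adjusted p 0.00778). Its lowest LM value is 0, so that setting changed the values of other genes and not those of Areg. Wnt4 was at 7.44, 21.3, 12.2 and 16.5 in sham and 16.4, 24.6 and 10.2 with EP, with full overlap (0.24, SE 0.58, adjusted p 0.811). Calca, the calcitonin gene and a marker of progesterone action in the uterus, was listed at 0 in all sham mice and in mouse 311 and at 110.4 and 227 in mice 306 and 327 (adjusted p 0.0683; 0.00370 without mouse 311). Lrrc26, a channel subunit of secretory epithelium, was at 8.05, 15.4, 5.32 and 8.24 in sham and 1.002, 1.22 and 0.00476 with EP and fell by 2.55 (SE 0.44, adjusted p 0.00162). Klf9 (-0.92, SE 0.30, adjusted p 0.0452) lost its call in 9 of 18 alternative settings.

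Of 19 estrogen targets 2 were higher, Greb1 and the RAS-like growth inhibitor Rerg, and 3 lower. The shares of 10.5% higher and 15.8% lower stand beside 10.2% and 9.37% of all genes and, resting on so few genes, are no result about the list. Rerg was at 2.202, 0.654, 0.544 and 0 in sham and 23.4, 4.26 and 13.7 with EP and differed by 2.87 (SE 0.42, adjusted p 6.31e-04). The lower ones were Igfbp5, which binds insulin-like growth factors, Rara and Fhl2, a LIM-domain cofactor. Igfbp5 was at 418, 121, 225 and 187 in sham and listed at 0 in all EP mice (adjusted p 0.00519). Fhl2 was at 51.7, 15.3, 34.96 and 21.1 in sham and 1.57, 25.4 and 2.33 with EP, with mouse 311 inside the sham range, and its difference of -2.24 (SE 0.62, adjusted p 0.024) lost its call in 5 of 18 alternative settings, with adjusted p-values of 0.119 without EP mouse 306 and 0.129 without EP mouse 327. The RANKL list (15 tested) had 2 higher genes, Tnfsf11 and Rspo1, and 2 lower, the subunit Nfkb1 (-1.25, SE 0.33, adjusted p 0.0155) and the kinase Map3k14 (-0.86, SE 0.26, adjusted p 0.0328). Both shares of this list were 13.3%, near those of all genes. Nfkb1 was lost without EP mouse 306 (adjusted p 0.0536) or 327 (0.0795), and Map3k14 without any of 5 mice. The receptor Tnfrsf11a did not pass (-0.12, SE 0.33, adjusted p 0.826). Rspo1 was listed at 0 in all sham mice and at 99.3, 3.48 and 113 with EP, and its adjusted p of 0.0314 became 0.125 without mouse 306 and 0.148 without mouse 327. Rspo1 also lost its call without any 1 of the 4 sham mice.

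The prolactin and STAT5 list (17 tested) had 5 higher (29.4%) and 2 lower genes (11.8%), against 10.2% and 9.37% of all genes. Stat5a, the main transcription factor of prolactin signalling, was at 0, 9.24, 3.55 and 1.77 in sham and 62.6, 111 and 64.6 with EP. Mouse 311 was the highest, every EP mouse was above every sham mouse, and the difference was 4.52 (SE 0.58, adjusted p 3.64e-04). Its paralogue Stat5b was at 6.04, 6.22, 5.34 and 6.55 in sham and 19.4, 24.4 and 22.2 with EP and differed by 1.71 (SE 0.23, adjusted p 2.84e-04). Socs2, a feedback inhibitor induced by STAT5, was at 4.48, 2.75, 3.29 and 2.02 in sham and 43.8, 24.8 and 31.5 with EP, with a difference of 3.05 (SE 0.27, adjusted p 6.56e-06). The kinase of secreted proteins Fam20c was at 0.881, 0.472, 0.328 and 0.442 in sham and 16.2, 12.9 and 17.4 with EP and differed by 3.43 (SE 0.30, adjusted p 6.56e-06). None of these 4 calls was lost in any of the 18 alternative settings. Cish, another STAT5-induced inhibitor, was at 37.3, 27.1, 24.2 and 25.9 in sham and 11.8, 31.5 and 12.3 with EP and did not pass (-0.72, SE 0.28, adjusted p 0.0784). The phosphatase Ptpn1 (-1.25, SE 0.29, adjusted p 0.00917) and Stat3 (-0.93, SE 0.26, adjusted p 0.021) were lower, with mouse 311 in the sham range of both. Ptpn1 had an adjusted p of 0.0518 without EP mouse 306 and 0.0659 without EP mouse 327. Stat3 lost its call in 6 of 18 alternative settings.

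Milk genes went both ways. Of 21 tested, 2 were higher (Muc15 and Plin3) and 6 lower (Ltf, Csn3, Lalba, Btn1a1, Mfge8 and Aqp5). The shares were 9.52% and 28.6%, against 10.2% and 9.37% of all genes. Muc15 and Plin3 lost their calls in 6 and 9 of 18 alternative settings. The iron-binding defence protein lactoferrin, Ltf, was at 4590, 1724, 2499.8 and 1380 in sham and listed at 0 in every EP mouse (adjusted p 0.0033). Kappa casein, Csn3, was at 1369, 554, 431 and 656 in sham and listed at 0 in every EP mouse (adjusted p 0.0115; 0.0508 without EP mouse 327). Alpha-lactalbumin (Lalba) and butyrophilin (Btn1a1) were likewise listed at 0 in all EP mice, against 57.8 to 136 and 31.3 to 136 in sham. Lalba did not pass without EP mouse 306 (adjusted p 0.0570) or 327 (0.0666). Beta casein, Csn2, was at 0, 0.551, 0 and 0 in sham and 23.8, 0.54 and 248 with EP. It lay under 1 in all sham mice and in mouse 311 and did not pass (adjusted p 0.0714), but did without mouse 311 (0.00973). The casein Csn1s1 separated the groups, at 2.39, 12.7, 10.1 and 1.86 in sham and 54.7, 13.3 and 196 with EP, and did not pass (3.12, SE 1.26, adjusted p 0.101). Ltf, Csn3, Lalba and Mfge8 are also members of the progenitor list, so the lower genes of the milk and progenitor lists are in large part the same.

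Innate defence and acute phase genes gave 4 higher (15.4%) and 8 lower (30.8%) of 26, with a median of -1.32. All genes had 10.2% higher and 9.37% lower. Cd14, which binds bacterial lipopolysaccharide, was at 531, 153, 362 and 119 in sham and 0, 16.4 and 0 with EP, and Tlr4, its partner receptor, was also lower (-1.15). Il33, an alarmin cytokine held in the nucleus, was at 47.2, 46.1, 58.8 and 61.9 in sham and 0.654, 2.33 and 0.628 with EP. Its EP values were all under 3, and it fell by 4.70 (SE 0.42, adjusted p 9.28e-06). Cebpd, a factor of the acute phase response, was at 173, 108, 148 and 85.9 in sham and 20.4, 48.5 and 16.4 with EP and fell by 2.25 (SE 0.44, adjusted p 0.00377). Clusterin (Clu), the related factor Cebpb and Chil1 were lower too, with differences of -2.30, -1.49 and -5.80, and Chil1 lost its call in 6 of 18 alternative settings. The remaining lower gene of the list was Ltf, given above with the milk and progenitor genes. Haptoglobin, Hp, an acute phase protein that binds free hemoglobin, was higher at 0, 54.2, 0 and 0 in sham and 258, 561 and 254 with EP (6.94, SE 1.24, adjusted p 0.00339). Complement C3 (1.62, SE 0.45, adjusted p 0.0218), the chemokine Ccl20 (2.88, SE 0.68, adjusted p 0.0117) and Saa1 (1.95, SE 0.51, adjusted p 0.0178) were higher too. C3 was lost without any of 4 mice (adjusted p 0.0502 to 0.116), and Ccl20 without EP mouse 306 (0.0583) or 327 (0.0593). Saa1 did not pass when only EP and sham libraries were fitted (adjusted p 0.0639).

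Cell cycle genes were the group with the largest share of calls, where all genes had 10.2% higher and 9.37% lower. Of 47 tested mitotic spindle and kinetochore genes 41 were higher and none was lower, with a median of 1.63 against -0.02 for all genes. Of 40 DNA replication genes 30 were higher and none was lower, with a median of 1.26. In 43 and 30 of them all EP values lay above all sham values, against 15.4% of all genes. Mitotic list medians were 1.77, 1.14 and 2.03 in the 3 EP mice, so the list was positive in mouse 311 too. Counts of higher genes were 35 to 42 mitotic and 19 to 32 replication genes when 1 EP or sham mouse was left out. The summed mitotic level was 43.2 to 59.7 in sham and 161 to 300.0 with EP.

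The helicase that opens DNA at replication origins is built from the MCM proteins. Mcm5 was at 1.31, 1.79, 1.41 and 0.583 in sham and 21.5, 11.7 and 36.2 with EP. Mouse 327 was highest and mouse 311 lowest of the EP mice, far above every sham mouse, and the difference was 3.30 (SE 0.51, adjusted p 9.63e-04). Mcm6 was at 4.68, 3.72, 6.39 and 5.15 in sham and 51.3, 26 and 75.4 with EP (3.01, SE 0.47, adjusted p 0.00102), Mcm3 at 2.904, 4.13, 4.18 and 3.02 in sham and 21.6, 12.7 and 29.4 with EP (2.22, SE 0.35, adjusted p 9.06e-04) and Mcm7 at 4.46, 7.56, 5.22 and 5.63 in sham and 29.7, 19.05 and 53.04 with EP (2.28, SE 0.42, adjusted p 0.00261). The sliding clamp gene Pcna, by contrast, was at 73.4, 49.4, 61.5 and 49.7 in sham and 61.9, 60.6 and 85.95 with EP and did not pass (0.25, SE 0.20, adjusted p 0.423). For nucleotide synthesis 14 of 24 genes were higher and Impdh1 was lower, a call lost in 4 of 18 alternative settings. The thymidine kinase Tk1 was at 0, 1.3, 0.638 and 0.407 in sham and 7.84, 4.51 and 12.9 with EP and differed by 2.53 (SE 0.43, adjusted p 0.0015). Of 17 genes of homologous recombination and the DNA damage response 10 were higher, among them the checkpoint kinase Chek1 (1.40, SE 0.25, adjusted p 0.00188).

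Among mitotic genes, topoisomerase Top2a, which untangles replicated chromosomes, was at 0, 0, 0.104 and 0 in sham and 6.597, 4.57 and 9.12 with EP. Spc25, a subunit of the NDC80 kinetochore complex, was at 0, 0, 0.239 and 0 in sham and 4.55, 3.504 and 6.84 with EP. Prc1, which bundles microtubules of the central spindle, was at 0.443, 0.00109, 0 and 0 in sham and 7.395, 5.58 and 8.95 with EP, and Racgap1, a regulator of the cleavage furrow, was at 0.44, 0.0828, 0.0599 and 0.264 in sham and 8.37, 6.93 and 12.8 with EP. All EP values of these 4 genes exceeded all sham values, with differences of 2.88, 2.46, 2.90 and 3.07 (adjusted p 4.76e-04, 2.17e-04, 2.86e-04 and 3.64e-04). The proliferation antigen Mki67 was at 0.0552, 0.00695, 0.0765 and 0 in sham and 1.36, 0.704 and 1.597 with EP and differed by 1.08 (SE 0.25, adjusted p 0.00863), with an adjusted p of 0.0540 without EP mouse 327.

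In the list of cyclins, kinases and inhibitors 18 of 40 were higher and 3 lower. The mitotic kinase Cdk1 was listed at 0 in all sham mice and at 5.16, 3.5 and 9.57 with EP (adjusted p 2.13e-04). Cyclin A2, Ccna2, was at 0, 0, 0.416 and 0 in sham and 8.95, 5.803 and 14.7 with EP, and Cdc20, which activates the anaphase-promoting complex, was at 0.303, 1.11, 0.571 and 0.794 in sham and 17.9, 10.2 and 21.4 with EP (3.33, SE 0.49, adjusted p 6.90e-04). The S-phase factor E2f1 was at 0.702, 1.06, 0.383 and 0.0323 in sham and 4.99, 3.59 and 7.098 with EP (2.02, SE 0.37, adjusted p 0.00247) and the mitotic factor Foxm1 at 0.601, 0.177, 0.393 and 0.301 in sham and 1.81, 1.55 and 2.51 with EP (1.11, SE 0.26, adjusted p 0.0092). The lower genes were cyclin D3 (Ccnd3, -0.68) and the pocket proteins Rb1 (-2.10) and Rbl2 (-0.90), which restrain E2F factors. Rb1 was at 31.4, 21.3, 21.5 and 18.4 in sham and 5.71, 3.47 and 4.62 with EP. Without 1 EP or sham mouse, Rb1 lost its call for every mouse (adjusted p 0.0514 to 0.104), and Ccnd3 and Rbl2 each lost theirs in several settings. Cyclin D1, Ccnd1, was at 41.2, 48.3, 13.5 and 41.5 in sham and 57.6, 22.4 and 83.9 with EP and did not pass (0.54, SE 0.50, adjusted p 0.495).

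**Figure D3:**
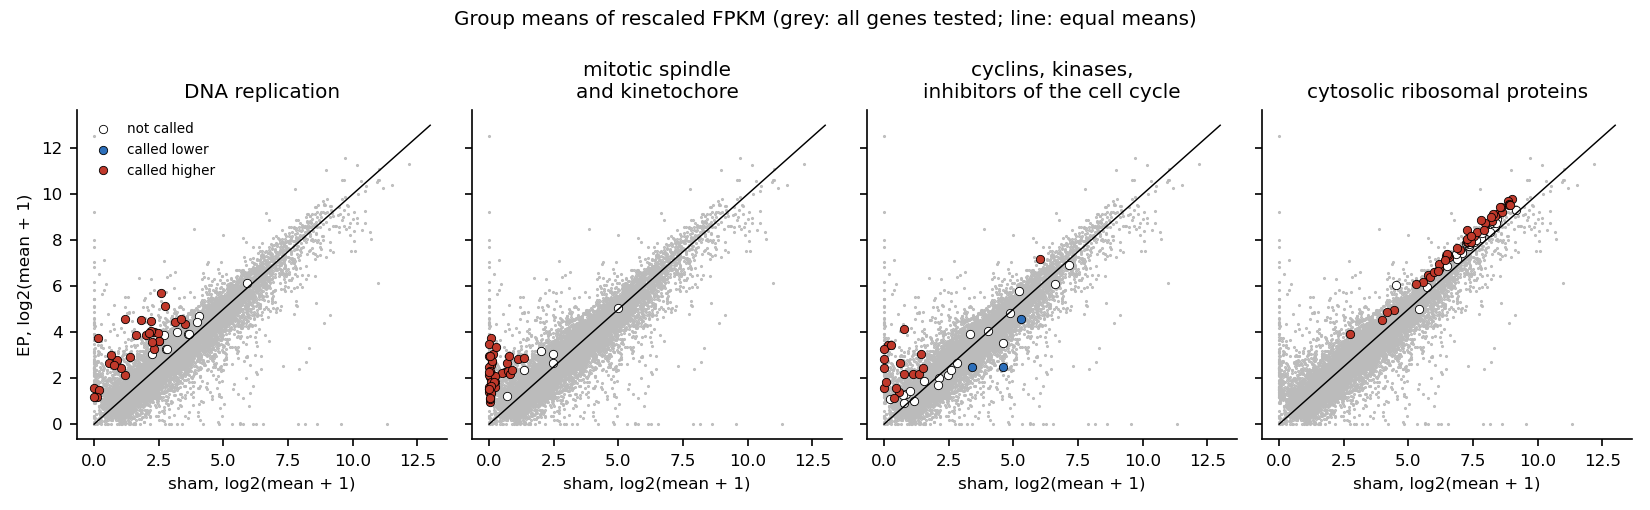
Mean rescaled FPKM with EP (vertical) against sham (horizontal), both as log2(mean + 1), for 4 gene lists over all 11885 genes tested (grey), with the line of equal means. The mitotic genes (41 of 47 called higher) and the replication genes (30 of 40) lie mostly above the line, and the ribosomal proteins (43 of 76) lie just above it. Positions along the horizontal axis carry the unknown shift by gene and are not compared.

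Promoters of some genes that were higher are shown with the letters they hold, which genes of the same lists that were not called can hold too. They come from RefSeq (build GRCm38.p6), which held a promoter (250 bases before to 50 after the start) for 9070 of the 11885 genes tested. Both strands were searched. E2F sites were read as TTTCCCGC or TTTGGCGC, CCAAT boxes as CCAAT, and the cell cycle homology region (CHR), bound by the complex that controls mitotic genes, as TTTGAA. None of these motifs contains another, and capitals below mark each match. Among replication genes, the following hold E2F sites and CCAAT boxes.
Mcm3 (chr1:20820283-20820444, minus strand): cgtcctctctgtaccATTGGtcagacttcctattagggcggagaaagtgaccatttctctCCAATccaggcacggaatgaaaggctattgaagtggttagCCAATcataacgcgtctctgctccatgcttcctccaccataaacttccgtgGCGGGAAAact
Mcm6 (chr1:128359700-128359830, minus strand): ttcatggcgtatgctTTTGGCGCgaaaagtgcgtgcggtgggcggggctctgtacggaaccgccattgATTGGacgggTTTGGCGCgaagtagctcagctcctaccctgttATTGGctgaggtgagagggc
Mcm7 (chr5:138171854-138172063, minus strand): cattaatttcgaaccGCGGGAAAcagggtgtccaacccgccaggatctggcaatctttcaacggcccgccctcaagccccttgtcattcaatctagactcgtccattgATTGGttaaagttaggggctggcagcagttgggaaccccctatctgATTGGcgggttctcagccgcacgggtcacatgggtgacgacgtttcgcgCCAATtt
E2F sites were in 8 of 31 promoters found for 25 of the 30 replication genes that were higher (25.8%), against 1.57% of all 32851 promoters and 2.85% of the promoters of genes tested. For all tested replication genes, called or not, the share was 11 of 39 (28.2%).

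Promoters of 3 genes of the mitotic list and of Cdc20, from the list of cyclins, kinases and inhibitors, hold the CHR with CCAAT boxes.
Prc1 (chr7:80294399-80294466, plus strand): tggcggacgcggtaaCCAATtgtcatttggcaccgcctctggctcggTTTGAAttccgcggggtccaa
Spc25 (chr2:69206184-69206283, minus strand): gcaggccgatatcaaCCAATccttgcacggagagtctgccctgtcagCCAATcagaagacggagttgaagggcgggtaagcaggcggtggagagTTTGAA
Cdc20 (chr4:118437332-118437411, minus strand): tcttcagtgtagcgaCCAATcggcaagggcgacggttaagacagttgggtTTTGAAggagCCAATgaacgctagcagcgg
Racgap1 (chr15:99651631-99651683, minus strand): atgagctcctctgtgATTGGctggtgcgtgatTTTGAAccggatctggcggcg
The CHR letters were in 29 of 41 promoters found for 36 of the mitotic genes that were higher (70.7%), against 17.9% of all promoters, and the CHR with a CCAAT box in 23 (56.1%), against 6.95%. The shares were 33 of 47 (70.2%) and 27 of 47 (57.4%) for all tested genes of the list, so they describe the list and not the genes that were called. A match is a description of these letters and no evidence of binding. Neither the estrogen response element (GGTCANNNTGACC) nor the element of progesterone and glucocorticoid receptors (GNACANNNTGTNC) had a match in 24 promoters of progesterone targets or 21 promoters of estrogen targets. They were in 0.0700% and 0.475% of all promoters.

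Among genes for building ribosomes and proteins, the differences were smaller and many genes did not pass. Of 76 cytosolic ribosomal protein genes 43 were higher and none was lower, with a median of 0.58. Rps26 was at 272, 229.98, 218 and 185 in sham and 471, 398 and 554 with EP, with a difference of 1.07 (SE 0.19, adjusted p 0.00219), and Rpl39 at 153, 150.1, 198 and 114 in sham and 328, 314 and 400.2 with EP (1.19, SE 0.22, adjusted p 0.00261). The list's count depended on the setting. It was 11 without EP mouse 327, 18 without EP mouse 306 and 7 with each gene's lowest value subtracted, where Rps26 had an adjusted p of 0.0690 and Rpl39 lost its call too. Ribosomal proteins have many near-identical copies in the genome, so their values are uncertain. Of 30 ribosome biogenesis genes 8 were higher and none lower, among them Dkc1, which modifies ribosomal RNA, at 6.403, 10.8, 7.79 and 7.45 in sham and 23.5, 13.1 and 26.6 with EP (1.24, SE 0.24, adjusted p 0.00295), and nucleophosmin, Npm1 (0.98, SE 0.22, adjusted p 0.00662). In the list of translation factors and tRNA synthetases 10 of 32 were higher and none lower. Shares higher were 56.6% (ribosomal proteins), 26.7% (ribosome biogenesis) and 31.25% (translation factors and synthetases), against 10.2% of all genes. The isoleucyl synthetase Iars was at 8.35, 6.41, 4.94 and 9.75 in sham and 23.2, 18.04 and 26.2 with EP (1.51, SE 0.21, adjusted p 4.06e-04), and the translation inhibitor Eif4ebp1, highest in mouse 311, was at 19.7, 21.2, 21.4 and 20.6 in sham and 39.4, 70.1 and 40.1 with EP (1.18, SE 0.22, adjusted p 0.00261).

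Among genes of the secretory machinery a minority passed the test. Of 38 genes of translocation, glycosylation and vesicle coats 13 were higher (34.2%, against 10.2% of all genes) and none lower. The medians of this list were 0.14, 0.65 and 0.42 in the 3 EP mice, the largest in mouse 311. Sec61b, a subunit of the channel into the endoplasmic reticulum, was at 79.4, 98.9, 81.7 and 71.04 in sham and 176, 232 and 211 with EP (1.31, SE 0.19, adjusted p 5.92e-04). Ddost, of the oligosaccharyl transferase, was at 97, 96.1, 67.9 and 80.6 in sham and 148, 218 and 178 with EP (1.07, SE 0.17, adjusted p 7.97e-04), and the signal peptidase subunit Spcs3 at 7.66, 5.497, 7.95 and 8.38 in sham and 19.5, 17.9 and 25.96 with EP (1.40, SE 0.24, adjusted p 0.00153). For the unfolded protein response and folding, 7 of 32 were higher (21.9%) and 4 lower (12.5%), against 10.2% and 9.37% of all genes. The disulfide isomerase Pdia6 was at 53.7, 100.5, 58.95 and 69.05 in sham and 189.9, 224 and 215 with EP (1.60, SE 0.23, adjusted p 4.73e-04), the chaperone Canx at 51.4, 45.6, 48.4 and 53.3 in sham and 75.7, 85.9 and 74.8 with EP (0.66, SE 0.14, adjusted p 0.00496) and the stress sensor Ern1 at 3.75, 1.802, 2.34 and 2.16 in sham and 6.24, 19.9 and 5.45 with EP (1.53, SE 0.33, adjusted p 0.00559). Lower were Dnajc12, Ddit3, Atf4 and Sel1l. Dnajc12, a cochaperone of aromatic amino acid hydroxylases, was at 24.7, 51.5, 38.5 and 46.9 in sham and 1.298, 2.25 and 2.18 with EP, a fall of 3.80 (SE 0.29, adjusted p 1.07e-06). Ddit3, a stress-induced factor, was at 24.3, 24, 21.3 and 21.2 in sham and 6.098, 10.6 and 12.3 with EP (-1.20, SE 0.27, adjusted p 0.00788; adjusted p 0.0525 without EP mouse 306), and Atf4 and Sel1l lost their calls in 6 and 10 of 18 alternative settings. The main folding chaperone Hspa5 (0.17, SE 0.30, adjusted p 0.726) and the stress factor Xbp1 (0.55, SE 0.22, adjusted p 0.0924) did not pass.

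The endoplasmic reticulum stress element, a CCAAT box and a CCACG separated by 9 bases, was in the promoters of Canx, Hsp90b1 and Pdia6, and it contains a CCAAT box by its definition. These were 3 of 6 promoters found for the 7 genes of that list that were higher (50%), against 0.119% of all promoters. The element was in 9 of 26 promoters (34.6%) of all tested genes of the list, called or not, so the share belongs to the list and says nothing of the genes called. The Pdia6 match is shown in capitals.
Pdia6 (chr12:17266476-17266524, plus strand): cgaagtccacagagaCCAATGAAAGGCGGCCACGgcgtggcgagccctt

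Tryptophan hydroxylase, Tph1, which makes serotonin, was among the 15 largest increases, at 0, 2.55, 6.92 and 0 in sham and 113, 42.6 and 85.5 with EP (5.03, SE 1.16, adjusted p 0.011). Tph1 was lost without EP mouse 306 (adjusted p 0.0509) or 327 (0.0531). The other 14 of these increases included several genes listed at 0 in all sham mice. Glutathione peroxidase 3, Gpx3, a secreted antioxidant enzyme, was at 4338, 10130 and 3313 with EP (adjusted p 0.00227). The defensin Defb1 was at 149, 149 and 92.3 (adjusted p 7.15e-04), and Plac8 at 205, 402 and 153 (adjusted p 9.01e-04). Pcp4, a calmodulin-binding peptide, was at 773, 486 and 531 (adjusted p 0.00184), and Folr2, a folate receptor, at 61.9, 60.8 and 45.8 (adjusted p 7.97e-04). The estrogen-metabolising enzyme Cyp1b1 was at 38.3, 31.4 and 29.7 (adjusted p 0.00298). Angptl7, Khdrbs3 and Rspo1 were likewise listed at 0 in all sham mice. Hp, Emid1 and a transcript known only as 9530014B07Rik were among the 14 too, with sham values of up to 54.2, 0.689 and 1.498. Gpx3, Defb1, Plac8, Pcp4, Folr2, Angptl7 and Rspo1 were each at 0 in 11 of the 15 LM libraries. Libraries at 0 add no spread, so the p-values of these genes reflect the spread between mice only in part. With all sham mice at 0, these genes entered the test through other libraries and could differ only upwards. In all, 55 called genes were listed at 0 in every sham mouse and 20 in every EP mouse.

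Among the 15 largest decreases, besides the milk, defence and estrogen target genes above, Spp1, the matrix protein osteopontin, was at 664, 205, 298 and 423 in sham and listed at 0 in all EP mice. Its adjusted p of 0.0165 became 0.0562 without EP mouse 306 and 0.0656 without 327. Galectin-3, Lgals3, was at 1101, 405, 317 and 383 in sham and 3.95, 73.3 and 0 with EP (adjusted p 0.00713). Plet1 was at 4202, 1113, 1271 and 1443 in sham and 19.1, 189.9 and 0 with EP (adjusted p 0.0134; 0.0670 without EP mouse 327). The fibrinogen chains Fgb and Fgg were listed at 0 in EP mice 306 and 327 and at 12.9 and 114 in mouse 311, against 137 to 391 and 175 to 502 in sham. Fam25c and the uroplakin Upk3a were listed at 0 in all EP mice, against 222 to 365 and 44.3 to 127 in sham (adjusted p 4.04e-14 and 1.39e-09). Both were at 0 in 11 of the 15 LM libraries. With all EP mice at 0, both entered the test through other libraries and could differ only downwards. Libraries at 0 add no spread, so the small size of these p-values does not measure the spread between mice. Clca3a2 was the remaining one, with a call lost in 6 of 18 alternative settings.

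In metabolism, the serine and one-carbon list had 7 higher and 2 lower of 23. The serine synthesis enzyme Psat1 was at 5.42, 2.15, 1.36 and 1.59 in sham and 21.3, 10.3 and 40.5 with EP (2.71, SE 0.55, adjusted p 0.00488) and the folate enzyme Mthfd1 at 7.21, 9.93, 4.79 and 8.26 in sham and 19.8, 17.5 and 24.1 with EP (1.36, SE 0.22, adjusted p 0.00102). The amino acid transporter Slc7a5 was at 14.5, 1.46, 0 and 0 in sham and 22.2, 106 and 41.8 with EP (4.25, SE 0.80, adjusted p 0.00375). Its heavy-chain partner Slc3a2 went the other way at 317, 201, 226 and 161 in sham and 72.98, 139 and 43.6 with EP (-1.51, SE 0.48, adjusted p 0.0415), a call lost in 8 of 18 alternative settings. Of 28 fatty acid genes 6 were higher and Dgat2 was lower, the latter lost in 9 of 18 alternative settings. The desaturase Scd2 was at 0.045, 4.72, 1.35 and 0 in sham and 30.4, 32.2 and 20.7 with EP (3.87, SE 0.61, adjusted p 0.00118), and lipoprotein lipase, Lpl, highest in mouse 311, was at 12.2, 7.097, 14.4 and 7.16 in sham and 22.2, 87.8 and 24.2 with EP (1.79, SE 0.46, adjusted p 0.0146). Cholesterol synthesis gave no higher gene of 21 and 3 lower, of which Sc5d (-0.88, SE 0.19, adjusted p 0.00662) held in every setting that tested it. Glycolysis gave 1 higher gene of 20, Pgam1, and 3 lower, Pkm, Pfkp and the glucose transporter Slc2a1. Pgam1 and Slc2a1 lost their calls in 7 and 6 of 18 alternative settings, Pkm with each gene's lowest value subtracted, and Pfkp without EP mouse 306 (adjusted p 0.0506) or 327 (0.0873). Of 40 respiratory chain genes 7 were higher and none lower, for example Cox5a at 122, 138, 114 and 118 in sham and 199.8, 231 and 226 with EP (0.83, SE 0.18, adjusted p 0.00681). Shares higher and lower were 30.4% and 8.70% (serine and one-carbon), 21.4% and 3.57% (fatty acid) and 0% and 14.3% (cholesterol). They were 5% and 15% for glycolysis and 17.5% and 0% for the respiratory chain. All genes had 10.2% and 9.37%. The cholesterol and glycolysis shares rest on few genes and are no result about these lists.

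Growth factor signalling showed its clearest shift in the FGF list, where 7 of 18 genes were lower and 2 higher, with a median of -0.84. The shares were 38.9% and 11.1%, against 9.37% and 10.2% of all genes. The receptor Fgfr2 was at 56.2, 101, 108 and 126 in sham and 6.97, 25.2 and 8.52 with EP. All EP values lay below all sham values, and the difference was -2.92 (SE 0.52, adjusted p 0.00232), which had an adjusted p of 0.0723 with a pseudocount of 0.1. Fgfr3 was at 8.38, 12.3, 10.1 and 12.1 in sham and 3.03, 3.13 and 2.31 with EP, with 3 similar EP mice (-1.61, SE 0.23, adjusted p 4.51e-04). Fgfr1 was at 80.9, 46.2, 48.3 and 53.5 in sham and 7.34, 17.8 and 5.54 with EP (-2.49, SE 0.64, adjusted p 0.0171), and it was lost without EP mouse 306 (adjusted p 0.0666) or 327 (0.0920). Downstream, the ETS factor Etv1 was at 3.46, 4.36, 4.69 and 6.16 in sham and 0.0918, 1.18 and 0.0849 with EP (-2.02, SE 0.40, adjusted p 0.00344), while its relative Etv5 was higher at 2.06, 0.435, 0.579 and 1.59 in sham and 8.62, 7.44 and 5.96 with EP (2.01, SE 0.35, adjusted p 0.00174). The feedback genes Spry4, Dusp5 and Dusp6 were lower (-0.90, -2.70 and -1.03), and Spry1 was higher (1.22, SE 0.40, adjusted p 0.0425), a call lost in 9 of 18 alternative settings. Counts of lower genes in the list were 3 to 9 when 1 EP or sham mouse was left out.

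The TGF-beta family had 9 lower (30%) and 4 higher genes (13.3%) of 30, against 9.37% and 10.2% of all genes. The receptor Tgfbr2 was at 28.8, 35.9, 38.3 and 44.02 in sham and 7.09, 13.4 and 7.58 with EP (-1.90, SE 0.23, adjusted p 1.46e-04). The target genes Id1 (-1.24, SE 0.28, adjusted p 0.0079) and Smad7, an inhibitor of the pathway (-1.26, SE 0.29, adjusted p 0.00741), were lower, as were Smad6, Bmp2, Inhbb, Bmpr1a, Acvr1 and Tgfbr1. The ligand Bmp3 was at 0, 0, 0.773 and 0 in sham and 24.8, 15.2 and 19.1 with EP (4.14, SE 0.57, adjusted p 5.25e-04), and the receptor Bmpr1b at 0, 1.396, 0.819 and 1.06 in sham and 3.896, 4.595 and 2.67 with EP (1.42, SE 0.28, adjusted p 0.0037; adjusted p 0.0620 with a pseudocount of 0.1). The other higher genes were the ligands Tgfb1, at 9.801, 8.78, 7.98 and 8.58 in sham and 12.8, 41.6 and 11.6 with EP, and Tgfb2. Bmp2 was lost without EP mouse 306 (adjusted p 0.0534) or 327 (0.116), Tgfb1 without mouse 311 (0.163) or any sham mouse, and Tgfb2 without mouse 306 (0.0870) or 327 (0.0814).

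WNT genes split into 5 higher (18.5%) and 2 lower (7.41%) of 27, against 10.2% and 9.37% of all genes. Resting on so few genes, these shares are no result about the list. The ligand Wnt7b was at 40.04, 31.5, 32.7 and 28.1 in sham and 3.32, 10.5 and 1.29 with EP, a fall of 2.80 (SE 0.47, adjusted p 0.0015). Lgr5, a receptor for R-spondins, was at 9.75, 1.92, 4.14 and 2.43 in sham and 0.224, 0.426 and 0.151 with EP (-1.94, SE 0.37, adjusted p 0.00303). Dkk3, of a family of WNT inhibitors, was at 4.03, 2.94, 3.18 and 2.95 in sham and 27.9, 6.19 and 27.96 with EP (2.10, SE 0.45, adjusted p 0.0059), with mouse 311 just above the sham mice. Znrf3, a ligase that removes WNT receptors, was at 0.8, 1.18, 0.708 and 0.521 in sham and 2.64, 1.98 and 2.49 with EP (0.91, SE 0.19, adjusted p 0.00488), and the receptors Fzd1 and Fzd6 were higher (1.08 and 0.90). The EGF list had 1 higher gene of 16, the ligand Epgn at 0.696, 2.99, 1.24 and 1.23 in sham and 9.77, 71.1 and 4.25 with EP, and 2 lower, Hbegf and the receptor inhibitor Lrig1. Lrig1 was at 20.8, 8.25, 14 and 9.68 in sham and 2.51, 3.54 and 3.71 with EP (-1.67, SE 0.30, adjusted p 0.00204), while Epgn and Hbegf lost their calls in 5 and 8 of 18 alternative settings. In the IGF axis Igf1 was at 4.86, 2.99, 1.41 and 1.22 in sham and 0.446, 0.502 and 0.234 with EP (-1.27, SE 0.29, adjusted p 0.00812), Igfbp5 was lower and Igfals higher (1.77) of 15 genes. Of 21 NOTCH genes, Numbl alone was called (-0.74). Numbl had an adjusted p of 0.0748 without EP mouse 327. Shares higher and lower were 6.25% and 12.5% (EGF), 6.67% and 13.3% (IGF) and 0% and 4.76% (NOTCH). They too rest on few genes and are no result about these lists. Without EP mouse 306 or 327, Fzd1 (adjusted p 0.0975 and 0.101) and Igfals (0.0576 and 0.0762) did not pass.

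Clock genes held the largest share of decreases among the lists. Of 19 tested genes of the circadian clock 8 were lower (42.1%, against 9.37% of all genes) and none was higher, with a median of -1.13. The groups were apart in 11 lower genes and in 1 higher, against 14.8% and 15.4% of all genes. Cry2, a repressor of the clock, was at 16.5, 23.4, 22.8 and 28.01 in sham and 4.66, 10.3 and 5.08 with EP, with a difference of -1.68 (SE 0.32, adjusted p 0.003). Per2, another repressor, was at 24.3, 20.98, 21.6 and 31.2 in sham and 3.78, 6.304 and 3.47 with EP (-2.23, SE 0.49, adjusted p 0.0071). The output factors Tef, at 16.02, 19.8, 16.9 and 21.7 in sham and 3.82, 7.22 and 3.798 with EP (-1.76, SE 0.36, adjusted p 0.00442), and Dbp, at 10.4, 30.2, 7.84 and 11.7 in sham and 1.67, 2.46 and 1.87 with EP (-2.24, SE 0.52, adjusted p 0.00949), and the repressors Bhlhe40, at 173, 215, 174 and 179 in sham and 60.3, 119 and 46.7 with EP (-1.39, SE 0.31, adjusted p 0.0067), and Bhlhe41 (-1.52, SE 0.30, adjusted p 0.0033) were lower too. Rora and Nr1d2 completed the 8. The activators Arntl (0.37, SE 0.31, adjusted p 0.431) and Clock (-0.18, SE 0.25, adjusted p 0.664) did not pass, and Npas2 separated the groups upwards, at 0.382, 0.629, 0.44 and 0.11 in sham and 0.946, 1.67 and 0.939 with EP, without passing (0.65, SE 0.25, adjusted p 0.0755). Nr1d1 was at 69.7, 68.4, 54.1 and 38.4 in sham and 7.72, 70.7 and 5.78 with EP, where mouse 311 lay just above the highest sham mouse and the others far below (-1.82, SE 0.83, adjusted p 0.141). Counts of lower genes were 6 to 9 without 1 EP or sham mouse. The labels do not give the time of day at which tissue was taken.

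**Figure D4:**
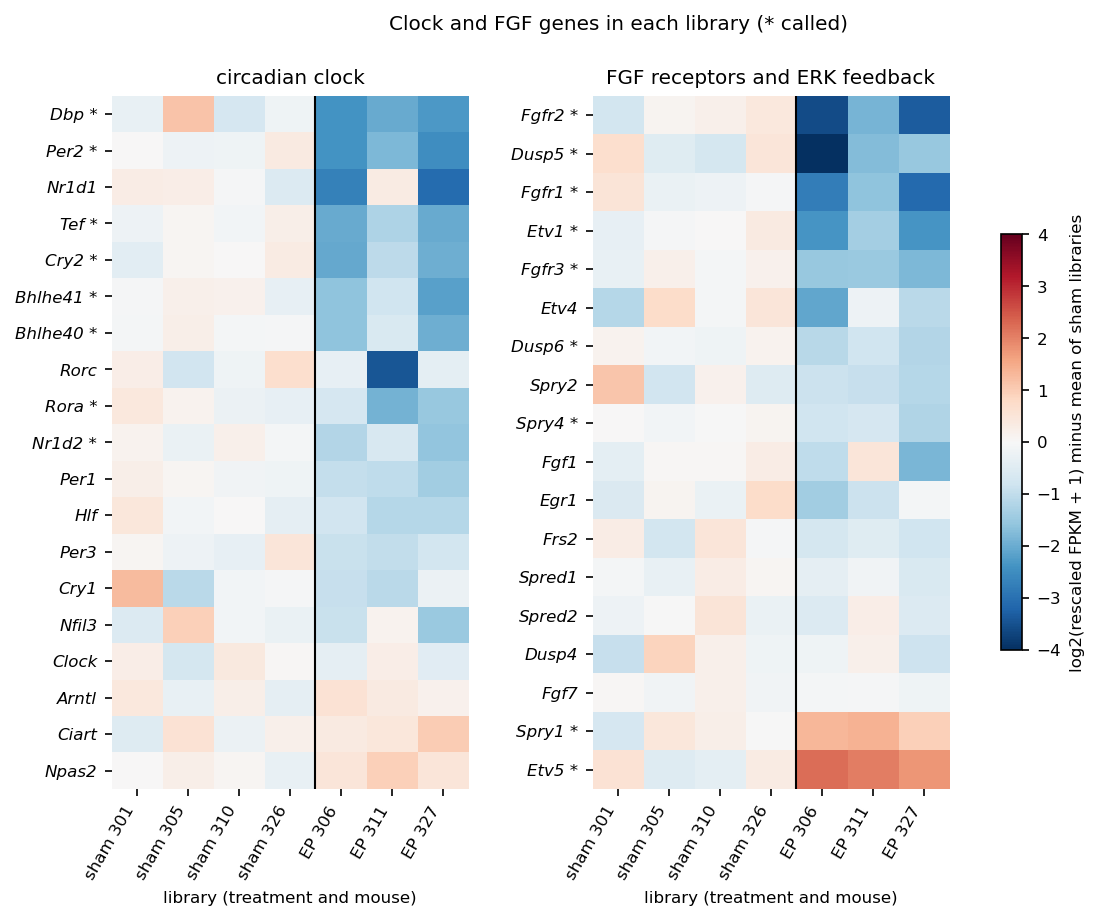
Log2(rescaled FPKM + 1) of each tested gene of the clock list (left) and the FGF list (right) in the 4 sham and 3 EP libraries (columns), minus the mean of the sham libraries, with an asterisk for a call. Per2, Cry2, Tef and Fgfr2 are lower in all 3 EP mice, and of these mice Nr1d1 is lower in 306 (7.72) and 327 (5.78) and not in 311.

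The E-box CACGTG, bound by clock activators, was in 3 of 7 promoters found for 6 of the clock genes that were lower (42.9%), those of Bhlhe41 and Tef, against 7.15% of all promoters and 9.98% of those of genes tested. It was in 6 of 21 promoters (28.6%) of all tested clock genes, among them Ciart, Cry1 and Per1, which were not called, so the share describes the list. This motif was added after the values had been seen. Immediate early genes, which growth signals induce quickly, had 4 lower (14.8%) and 1 higher gene (3.70%) of 27, with a median of -0.84. All genes had 9.37% lower and 10.2% higher. Junb was at 519, 1131, 576 and 622 in sham and 244, 502 and 228 with EP (-1.15, SE 0.31, adjusted p 0.0189), and it was lost without EP mouse 306 (adjusted p 0.0886) or 327 (0.108). Jun separated the groups at 320.2, 854, 469 and 568 in sham and 154, 253 and 157 with EP without passing (-1.50, SE 0.55, adjusted p 0.0683), and Fos did not pass (-1.10, SE 0.48, adjusted p 0.121). Ier3, Fosl2 and Nr4a3 were lower and Egr3 higher, and each of these lost its call in 6 to 9 of 18 alternative settings.

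Of the luminal and alveolar transcription factors, Ehf was higher and 6 of 34 were lower. Besides Esr1, Cebpd and Cebpb, these were Runx1, a factor of luminal differentiation, at 31, 30.3, 45.9 and 33.4 in sham and 8.303, 16.3 and 5.94 with EP (-1.78, SE 0.35, adjusted p 0.00371), Nfia at 6.85, 5.36, 7.81 and 5.85 in sham and 3.205, 2.39 and 2.88 with EP (-0.96, SE 0.18, adjusted p 0.00227) and Runx2 (-1.13). Interferon response genes gave Bst2 as the 1 higher gene of 24, at 20.2, 29.9, 32.4 and 26.4 in sham and 84.7, 125 and 69.4 with EP (1.71, SE 0.28, adjusted p 0.00106), and 4 lower (Stat2, Irf1, Ifih1 and Ifit2), each lost in 5 or more of 18 alternative settings. For antigen presentation B2m, the light chain of class I molecules, was at 599.7, 1046, 892 and 766 in sham and 3706, 2670.5 and 2772 with EP (1.90, SE 0.39, adjusted p 0.00506), while the peptide loading factor Tapbp (-0.72, SE 0.15, adjusted p 0.00411), the immunoproteasome subunit Psmb10 (-0.80, SE 0.16, adjusted p 0.00381) and H2-T23 (-0.87, SE 0.21, adjusted p 0.0103) were lower of 18. B2m had an adjusted p of 0.430 and Tapbp of 0.168 with each gene's lowest value subtracted, and H2-T23 was lost without EP mouse 306 (0.0554) or 327 (0.0676). Shares higher and lower were 2.94% and 17.6% for the transcription factors, 4.17% and 16.7% for interferon and 5.56% and 16.7% for antigen presentation genes. All genes had 10.2% and 9.37%.

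Matrix genes had 4 higher (17.4%) and 1 lower (4.35%) of 23, against 10.2% and 9.37% of all genes. The collagen prolyl hydroxylase P4ha2 was at 1.82, 0.532, 2.11 and 1.43 in sham and 35.1, 69.8 and 29.5 with EP (4.16, SE 0.54, adjusted p 3.59e-04), highest in mouse 311, and the lysyl hydroxylase Plod1 at 10.4, 13.7, 14.96 and 15.4 in sham and 31.8, 71.2 and 31.2 with EP (1.55, SE 0.29, adjusted p 0.00264). The protease inhibitor Serpine2 was at 3.71, 3.17, 4.09 and 3.74 in sham and 27.7, 56.5 and 22.9 with EP (2.87, SE 0.37, adjusted p 2.27e-04). Timp1, an inhibitor of matrix proteases, was at 6.95, 4.53, 3.44 and 4.06 in sham and 45.8, 28.3 and 19.03 with EP (2.43, SE 0.37, adjusted p 7.15e-04), and its relative Timp2 went the other way at 133, 111, 109 and 113 in sham and 47.2, 36.6 and 37.5 with EP (-1.51, SE 0.24, adjusted p 8.73e-04). Of the junction list, the cadherin Cdh3 (1.06, SE 0.25, adjusted p 0.00857), Krt15 (0.74, SE 0.18, adjusted p 0.0102) and Krt23 were higher and desmoplakin, Dsp (-1.30, SE 0.29, adjusted p 0.00639), and Epcam were lower of 30. In the apoptosis list the BH3 protein gene Pmaip1 was at 0.0553, 0.429, 0.638 and 0.93 in sham and 4.697, 6.698 and 3.01 with EP (1.92, SE 0.31, adjusted p 9.63e-04), 5 of 28 were higher and the survival gene Mcl1 was lower (-1.42, SE 0.35, adjusted p 0.0128). Mcl1 was lost without EP mouse 306 (adjusted p 0.0517) or 327 (0.0622). The chromatin list gave 3 higher of 25, the helicase Hells at 0.356, 0.252, 0.13 and 0.113 in sham and 6.69, 3.82 and 11 with EP (2.66, SE 0.44, adjusted p 0.00125), Ezh2 and Setdb1, and 2 lower, Ezh1 and Kdm6b. Ezh2 (adjusted p 0.0517 and 0.0692) and Setdb1 (0.0616 and 0.111) did not pass without EP mouse 306 or 327. Krt23, Ezh1 and Kdm6b lost their calls in 5, 10 and 4 of 18 alternative settings. Shares higher and lower were 10% and 6.67% (junction), 17.9% and 3.57% (apoptosis) and 12% and 8% (chromatin). Beside 10.2% and 9.37% of all genes they are near or rest on few genes, and are no result about these lists.

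**Figure D5:**
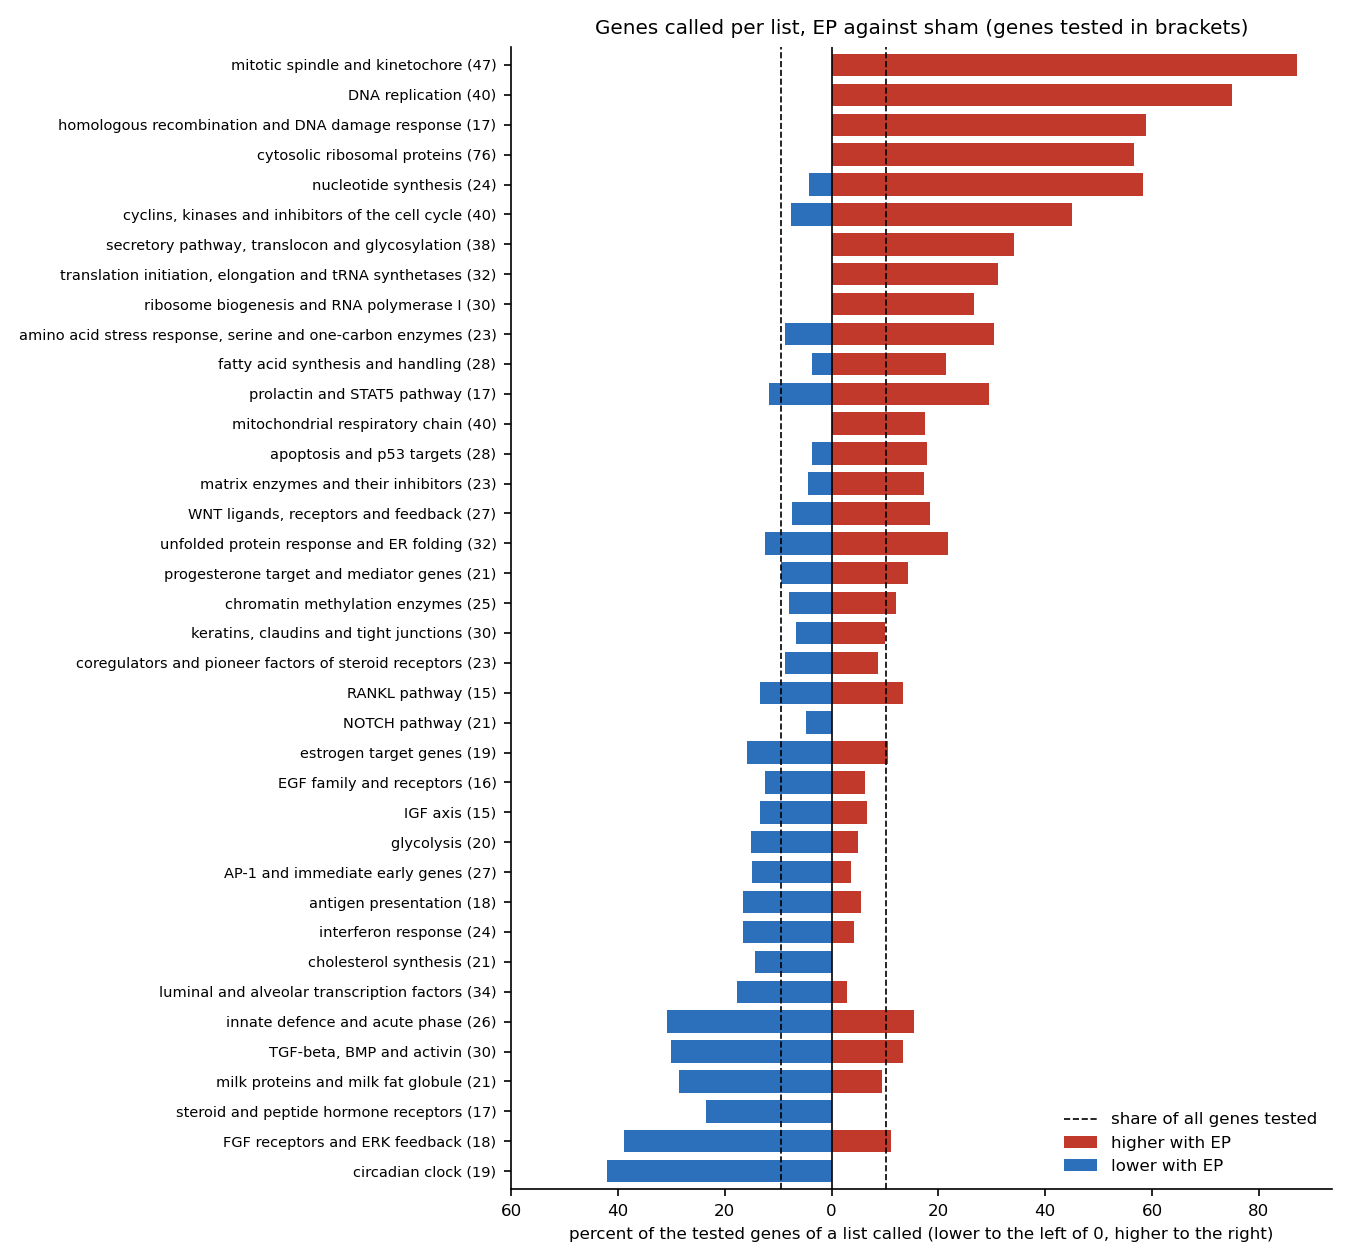
Percent of the tested genes of each list that were called higher (red, right of 0) or lower (blue, left of 0), with the number tested in brackets, for the 38 lists that are not cell type markers. Dashed lines mark the shares of all genes tested, 10.2% higher and 9.37% lower, and the cell cycle and ribosomal lists reach furthest to the right and the clock and FGF lists furthest to the left.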

How the data were processed

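RNA of sorted cells (1 to 2 ng, per the labels' protocols) was made into full-length cDNA libraries and sequenced as read pairs. STAR, Cufflinks, DESeq2 and build mm9 are named without versions in the submitters' processing notes. The deposited table holds FPKM values, judged from the values because no header names the unit. They look as if adjusted by gene within sets of libraries, 1 of them the 15 LM libraries, and negative values set to 0. This was inferred from near-equal gene means across fractions and from lowest values that LM libraries share, and none of the sources used here describes it. Depth is unknown, so no counting interval is given. Of 22007 symbols, 27 that resemble dates were left out.

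Genes with a value of 1 or more in at least 3 LM libraries were tested (11885). LM libraries were rescaled by median-ratio factors over 8638 genes, and where libraries shared a gene's lowest value, the factor acted only on the excess over it. Values were taken as log2(value + 1), which understates the change of low genes. A limma 3.58.1 fit (R 4.3.3, empirical Bayes with trend and robust) used the 15 LM libraries in 4 treatment groups, which share 1 estimate of spread, with Benjamini-Hochberg adjustment over all genes. A gene is called at an adjusted p under 0.05. Nothing but the mouse number in the labels separates replicates, and p-values measure the spread between these mice. Libraries at 0 add no spread, so p-values of genes at 0 in most LM libraries reflect it only in part. A gene at 0 in all sham or all EP mice is tested only through other libraries, so its direction was fixed in advance. The script was tested on simulated data.

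The members, 46 gene lists and motifs were chosen with earlier results of these data known. Named genes were the 15 called higher and 15 called lower with the largest difference (groups apart, mean of the higher group at least 5), up to 4 called members per list and direction with the smallest p, and key genes of the hormone response whether called or not. A few genes that met this rule are not reported here. Other genes given with values were chosen after their values were seen. Alternatives were no rescaling, quantile normalization, pseudocounts of 0.1 and 5, subtraction of each gene's lowest value, no filter and a stricter filter (5), EP and sham libraries alone, library weights, plain empirical Bayes, each mouse left out, and, chosen after seeing the data, a fit without the EP plus TPA library of mouse 332.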

Additional observations from a re-analysis of the deposited data

Results flagged for a closer look

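In 22 of the 214 named genes reported here 1 of the 4 sham mice stood apart from the other 3, by a gap above Dixon's critical value at the 95% level. That level means about 1 in 20 groups by chance for normally distributed values, which these are not. Where the other 3 sham mice are listed at 0, any value above 0 is flagged. The number flagged is therefore not set against that rate, and the 3 EP mice were too few for this test. Sham mouse 301 accounted for 12 of them. It was high in Lgals3 (1101 against 317 to 405), Plet1 (4202 against 1113 to 1443), Slc2a1 (218 against 76.7 to 88.4), Atf4 (290.2 against 142 to 166), Nfkb1 (26.98 against 11.9 to 12.0) and Slc7a5 (14.5 against 0 to 1.46). It was also high in Timp2 (133), Egr3 (2.27), Prc1 (0.443) and Wap (0.0644), and low in Ezh1 (9.49 against 14.7 to 15.4) and Stat2 (3.83 against 6.90 to 7.41).

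Sham mouse 305 was high in 6 genes. Junb was at 1131 against 519 to 622, Bhlhe40 at 215 against 173 to 179, and haptoglobin (Hp) at 54.2 against 0 in the others. The remaining ones were 9530014B07Rik (1.498), Csn2 (0.551) and Ccl20 (0.383). Sham mouse 310 was high in 4 genes at low values, Bmp3 (0.773), Ccna2 (0.416), Spc25 (0.239) and Top2a (0.104), each listed at 0 in the other sham mice.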

How the results depend on the processing

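Of 199 called named genes 112 were called in every setting that tested them, and none of the 199 changed sign over the 18 alternatives. Library weights gave 4165 called genes (2099 higher and 2066 lower), and the fit without the EP plus TPA library of mouse 332, chosen after seeing the data, 3041 (1538 and 1503). With 1 mouse left out, 952 to 2854 genes were called, 530 to 1465 higher and 422 to 1389 lower. The groups were then apart upwards in 1985 to 2967 genes and downwards in 1901 to 3036. Leaving a mouse out can only keep or raise the number of genes with groups apart, so that rise is no result. Lower genes numbered 728 without sham mouse 326 and 728 without sham mouse 310, and the highest counts came without EP mouse 311. The cause was not tested. Signs turned in 6 uncalled genes. Kit ranged from -2.32 to 0.84 with 1 mouse left out, Nr3c1 from -0.11 to 0.32 and Krt5 was 0.055 without rescaling. Pgr was -0.0048 with quantile normalization, -0.042 with a pseudocount of 0.1, -0.58 with library weights and -0.66 to 0.47 with 1 mouse left out. Tnfrsf11a was 0.056 without rescaling, 0.15 with weights and -0.37 to 0.18 with 1 mouse left out, and Wnt4 was -0.14 with weights and -0.050 to 0.55 with 1 mouse left out. With 1 EP mouse left out, 2 remained and the spread was that of all LM groups. No paired analysis was possible because each treatment had different mice and no label ties a mouse of one group to one of another. Depth is unknown, so what depth limits cannot be stated.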
